A study of Mus musculus with 60 samples.

Results

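Interferon-stimulated genes (ISGs) are the genes that a cell switches on when an interferon binds its receptor, and 32 of them were followed here in lung, liver and forestomach of mice given benzo(ghi)perylene (BghiP), a polycyclic aromatic hydrocarbon. Members were taken by symbol, each through the probe with the brightest mean tissue signal among the probes whose RefSeq accession maps to that symbol. Of the 32 genes, 30 had a probe among the 55681 on the array, and no probe was matched to Mx1 or Mx2. Oas1g was well above background on 0 lung, 1 liver and 0 forestomach arrays and was not tested. This left 29 tested members for lung, another 29 for liver and 25 for forestomach, where Cmpk2, Dhx58, Ifit1 and Ifi44 were too dim on too many arrays to be tested against dose.

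The animals were 20 male Muta Mouse animals, a transgenic mouse strain that carries a bacterial lacZ reporter for mutations, about 10 weeks old. They received BghiP in olive oil by gavage for 28 days at 0 (D0, vehicle only), 6.25 (D1), 12.5 (D2) or 25 (D3) mg/kg-bw/day, and each dose group held 5 mice. Tissues were collected 72 hours after the last gavage. Mice 1 to 5 formed D0, 6 to 10 D1, 11 to 15 D2 and 16 to 20 D3, and a number stands for the same animal in each tissue. Each of the 60 arrays compared Cy5-labeled RNA of 1 tissue of 1 mouse with the same Cy3-labeled universal mouse reference RNA, a pool from 11 cell lines, with no dye swap.

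Type I and type III interferons signal through receptor-bound kinases to a complex that holds STAT2 and IRF9 and binds the interferon-stimulated response element, and type II interferon leads to binding at the interferon-gamma activation site. The products restrict viruses at many steps, and several of them (IRF7, STAT2, IRF9) feed back on the pathway itself. In healthy tissue many ISGs keep a low tonic level without infection.

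Promoter sequences of members in whose upstream region these elements occur are shown because the pathway's own factors bind these 2 elements. They are from RefSeq (assembly GRCm38.p6) and are written 5' to 3' on the strand of the gene. Each stretch lies upstream of the start of the transcript, and capitals mark the matches to the response element, searched as GAAA, 2 bases of any kind and GAAA (TTTC, 2 bases and TTTC on the opposite strand), or to the activation site, searched as TTCNNNGAA, which reads the same on both strands.
Isg15, response element, chr4:156200850-156200921, minus strand: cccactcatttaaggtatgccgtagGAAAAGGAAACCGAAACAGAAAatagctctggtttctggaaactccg
Ifit1, response element, chr19:34640760-34640838, plus strand: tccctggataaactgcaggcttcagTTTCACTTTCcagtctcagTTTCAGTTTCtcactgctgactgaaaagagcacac
Ifit3, response element, chr19:34583348-34583441, plus strand: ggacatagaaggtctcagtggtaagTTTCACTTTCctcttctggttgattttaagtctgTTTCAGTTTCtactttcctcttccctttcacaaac
Rsad2, response element, chr12:26456538-26456597, minus strand: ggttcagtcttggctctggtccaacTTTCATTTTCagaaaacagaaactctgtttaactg
Gbp2, response element, chr3:142620579-142620638, plus strand: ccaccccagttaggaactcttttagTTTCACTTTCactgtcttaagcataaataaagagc
Bst2, response element, chr8:71537562-71537627, minus strand: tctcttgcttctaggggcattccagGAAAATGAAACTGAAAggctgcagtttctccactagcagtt
Oas1a, response element, chr5:120907526-120907570, minus strand: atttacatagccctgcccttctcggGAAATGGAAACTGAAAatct
Irf1, activation site, chr11:53769899-53769957, plus strand: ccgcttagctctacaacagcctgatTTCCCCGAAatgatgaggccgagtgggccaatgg

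A promoter was listed for 24 of the 32 members, each as 300 bases from 250 before to 50 after the start. Both strands were searched and overlapping matches were counted. The response element occurred in 13 of the 24 members (54.2%), against 1131 of 32851 promoters of the same length in the table (3.44%). The activation site occurred in 6 of the 24 (25%), against 8.3% of all promoters, and 3 members held both, among them Bst2 and Oas1a. Isg15 held 3 overlapping matches of the first kind. These matches are descriptions of letters in a window and not evidence of binding.

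All values that follow are log2 ratios of tissue to reference RNA, so that a value of 0 means equal signal in tissue and in the reference pool, and changes are differences of log2 ratios from the vehicle mice. No member was called at any dose in any tissue (limma, adjusted p of 0.05 or less over all probes of the tissue and a change of at least 1.5-fold). The background was the same, since no probe was called at any dose either (0% in each comparison, of 31041 lung, 25907 liver and 25107 forestomach probes). In liver, 62 probes had a called slope with dose (0.239%, of which 0.0579% rising and 0.181% falling), and 0 of the 29 members were among them. The 3 doses of a tissue share the same 5 vehicle arrays, so their changes are not independent of each other.

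Below that threshold, most members lay lower in exposed liver than in vehicle liver. At D1, 24 of 29 members had a negative change, with a median of -0.24 over members against 0.0062 over all probes. At D2 there were 23 of 29 with a median of -0.19, and at D3 25 of 29 with a median of -0.16, against -0.0098 and -0.00039 over all probes. At an unadjusted p under 0.05 there were 8 members at D1 (7 lower and 1 higher), 10 at D2 (9 lower and 1 higher) and 7 at D3 (6 lower and 1 higher), which compares with 3.03%, 4.15% and 12.1% of all probes. In bulk tissue, fewer cells of a type and less RNA per cell cannot be told apart. Markers of macrophages and monocytes lay higher in D3 than in vehicle liver, with 7 of 7 tested genes above 0, a median of 0.411, 2 genes at an unadjusted p under 0.05 and 0 called. Each of the 7 was well above background on all liver arrays, their mean lay between -0.23 and 0.25 in vehicle mice and between 0.12 and 0.59 at D3. Other markers lay lower at D3, with 0 called. Those of liver itself were lower in 5 of 6 genes (median -0.159), with a mean from -0.46 to 0.49 in vehicle mice and from -0.66 to 0.45 at D3. Those of red cells were lower in 3 of 3 tested genes (-0.206), with means of -0.33 to 0.35 and -0.44 to -0.07. Those of plasmacytoid dendritic cells were lower in 5 of 6 tested genes (-0.0695, with 1 at an unadjusted p under 0.05), with means of -0.11 to 0.14 and -0.19 to 0.007. The part of these cells in the member values was not tested.

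The members closest to a call at D3 are given mouse by mouse. Ifit1, whose protein binds viral RNA that lacks a host-like cap, had the lowest p in liver. Its values were -0.94, -0.18, 0.07, -0.37 and -0.43 in the D0 mice, and -0.84, -1.06, -1.25, -0.91 and -0.82 in the D3 mice. Vehicle mouse 1 lay within the D3 range, and the other D0 mice lay above it. The change was -0.40 at D1, -0.42 at D2 and -0.61 ± 0.18 (SE, n = 5 mice per group) at D3, with an adjusted p of 0.185 in limma at D3.

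Usp18, the protease that removes ISG15 from proteins and dampens the interferon receptor, had no overlap between D0 and D3 in liver. How many of all liver probes were also without overlap was not counted, here and for Rtp4 below. The D0 mice were at -0.87, -0.50, -0.41, -0.80 and -1.10, and the D3 mice at -1.27, -1.61, -1.46, -1.26 and -1.30. At D2 they were at -1.38, -1.34, -0.87, -1.65 and -1.92, so that only mouse 13 reached the vehicle range. The change was -0.52 at D1, -0.69 at D2 and -0.64 ± 0.20 (SE) at D3, where the limma adjusted p was 0.211.

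Rtp4, a chaperone for membrane receptors that also restricts viruses, lay lower in each D3 liver than in any D0 liver as well. Its values were 0.27, 0.65, 0.66, 0.34 and 0.38 at D0, and 0.02, -0.08, -0.07, 0.21 and 0.13 at D3. The change was largest at the lowest dose, with -0.57 at D1, -0.52 at D2 and -0.42 ± 0.15 (SE) at D3 (limma adjusted p = 0.273).

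Xaf1, which promotes apoptosis, had the third lowest p in liver. Its vehicle livers were at -0.17, -0.12, -0.24, -0.46 and -0.26, and its D3 livers at -0.27, -1.05, -0.56, -0.90 and -0.81. D3 mouse 16 lay within the vehicle range. The change was -0.45 at D1, -0.43 at D2 and -0.47 ± 0.16 (SE) at D3 (limma adjusted p = 0.259).

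Irf1, a transcription factor that responds most to type II interferon, went the other way from these members. It was at -0.65, -0.42, -0.19, -0.32 and -0.27 in vehicle liver and at 0.11, -0.38, 0.18, -0.14 and -0.03 at D3, where mouse 17 alone lay in the vehicle range. The change was 0.41 at D1, 0.28 at D2 and 0.32 ± 0.13 (SE) at D3 (limma adjusted p = 0.343).

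**Figure D1:**
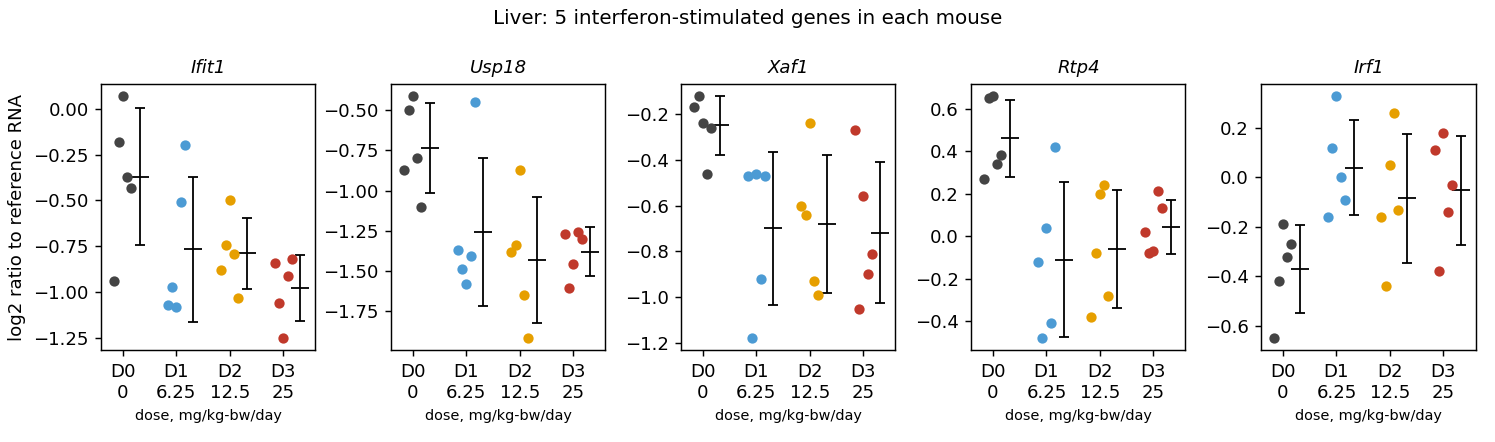
Log2 ratio to reference RNA (vertical axes, each with its own range) of 5 members in liver by dose in mg/kg-bw/day. Each point is 1 mouse, and the horizontal and vertical black lines give the mean and SD of 5 mice. Usp18 and Rtp4 lie lower in each D3 mouse than in any D0 mouse, and Irf1 lies higher in 4 of the 5 D3 mice than in all D0 mice.

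The other liver members are given by role. Among regulators, the change at D3 was -0.28 ± 0.17 (SE) for Irf7, the factor that amplifies interferon production, -0.21 ± 0.12 for Irf9 and -0.13 ± 0.14 for Stat2. Among the 2'-5'-oligoadenylate synthetase family, whose members make the messenger that activates RNase L or relate to those that do, it was -0.42 ± 0.20 for Oas1a, -0.18 ± 0.15 for Oasl2, -0.06 ± 0.16 for Oas3 and -0.02 ± 0.13 for Oas2. Isg15, the ubiquitin-like modifier, was at -0.38 ± 0.19 and Rsad2, which makes a chain-terminating nucleotide, at -0.40 ± 0.18.

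Liver members near 0 at D3 included the guanylate-binding proteins Gbp2 (0.044 ± 0.13, SE) and Gbp3 (0.063 ± 0.17) and the RNA sensors Dhx58 (0.10 ± 0.16) and Ifih1 (-0.084 ± 0.14). Oasl1, which restrains translation of Irf7, ran low in a few animals. At D2 it was at -2.49, -1.18, -0.59, -0.36 and -2.49, and mice 6 and 16 at the other doses were at -2.06 and -1.94, while vehicle livers lay between -0.93 and 0.45. No member showed a change at D3 that differed between liver and lung, liver and forestomach, or lung and forestomach at an adjusted p of 0.05 or less (limma interaction, 0 members and 0% of probes in each pair).

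In lung, the members lay slightly lower on the median, with 22 of 29 lower at D1, 21 at D2 and 21 at D3. The medians were -0.087, -0.12 and -0.11, against 0.0036, 0.0049 and 0.0088 over all probes. At an unadjusted p under 0.05 there were 1, 5 and 4 members, against 2.22%, 3.4% and 4.81% of probes. The lung values depended on vehicle mouse 2, in which 27 of 29 members lay above the vehicle mean. Without it the median was 0.0051 at D1, -0.051 at D2 and -0.029 at D3.

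Markers of other cell types lay lower or higher in exposed lung, and none was called. All 6 tested skeletal muscle markers and all 5 tested markers of squamous epithelium of forestomach were lower at each dose, with medians at D3 of -0.877 and -0.929 and 0 called. Vehicle mouse 1 stood apart in both, at a mean of 4.65 for the muscle markers and 3.22 for the squamous markers, while the other vehicle lungs lay between -1.33 and -0.83 and between -1.08 and -0.55. Without that mouse the median over members at D3 was -0.17. Markers of plasmacytoid dendritic cells were lower in 6 of 7 genes at D2 (median -0.188) and D3 (-0.343), with 0 called. Their mean ran from -0.39 to 0.51 in vehicle lungs and from -0.46 to 0.027 at D3. Markers of B cells were higher in 8 of 8 genes at each dose (median 0.245 at D3), those of macrophages and monocytes in 7 of 7 at D3 (0.225), and those of NK cells in 8 of 8 at D2 (0.362, with 3 at an unadjusted p under 0.05). Markers of fat cells were higher in 8 of 8 genes at D1 (median 0.674), 7 of 8 at D2 (0.447) and 7 of 8 at D3 (0.207), with a mean from -0.98 to 1.06 in vehicle lungs and from -0.40 to 1.92 at D3. The part of these cells in the lung values was not tested.

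The 3 lung members with the lowest p at D3 were Ifit2, Oasl1 and Parp14. Ifit2, a relative of Ifit1, was at -0.56, -0.43, -0.61, -0.40 and -0.16 at D0 and at -0.14, -0.08, -0.53, 0.11 and -0.02 at D3, a change of 0.30 ± 0.12 (SE; limma adjusted p = 0.979). Oasl1 was at -3.06, -2.09, -2.33, -2.81 and -2.67 at D0 and at -2.92, -2.96, -2.88, -2.99 and -3.13 at D3, a change of -0.39 ± 0.17 (limma adjusted p = 0.998). Both genes overlapped between the groups, with D3 mouse 18 in the D0 range for Ifit2 and D0 mouse 1 in the D3 range for Oasl1.

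Parp14, a mono-ADP-ribosyltransferase, was at 2.02, 2.71, 2.28, 1.98 and 2.22 in vehicle lung and at 1.98, 2.10, 2.11, 1.70 and 1.99 at D3. The change was -0.27 ± 0.12 (SE; limma adjusted p = 0.998), and without vehicle mouse 2 it was -0.15. Isg15 in lung was highest in the same mouse, at 1.00, with the other vehicle mice at -0.17, 0.47, -0.12 and -0.47 and the D3 mice between -0.59 and -0.25. Its change at D3 was -0.57 ± 0.26, and -0.35 without mouse 2. Rsad2 in lung had its lowest values at D2, with 1.41, -0.04, 0.92, 0.81 and 0.27 against 1.37, 2.07, 1.66, 2.36 and 1.09 at D0, and a change of -1.04 ± 0.33 at D2 but -0.58 ± 0.33 at D3.

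The other lung members are again given by role. Among the regulators the change at D3 was -0.18 ± 0.22 (SE) for Irf7, -0.13 ± 0.12 for Stat2, 0.13 ± 0.20 for Irf1 and -0.016 ± 0.13 for Irf9. The RNA and nucleic acid sensors Dhx58 (0.07 ± 0.13), Ifih1 (-0.11 ± 0.17) and Zbp1 (0.017 ± 0.18) and the GTPases Gbp2 (-0.032 ± 0.16) and Gbp3 (0.02 ± 0.16) lay within 1 SE of 0. Ifit1 was at -0.37 ± 0.20 in lung and Usp18 at -0.078 ± 0.15, and the lung minus liver difference in their change was not called.

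In forestomach, 15 of 25 members were lower at D1, 14 at D2 and 22 at D3, with medians of -0.10, -0.025 and -0.17 against -0.02, 0.027 and 0.0091 over all probes. At an unadjusted p under 0.05 there were 1, 1 and 0 members, against 9.37%, 3.65% and 1.5% of probes. Oas3 had the lowest p at D3, with -0.53, -0.38, 0.04, -0.61 and -0.24 at D0 and -0.71, -0.81, -0.09, -0.99 and -1.15 at D3. All D3 mice but mouse 18 lay below the vehicle mice, and the change was -0.40 ± 0.23 (SE; limma adjusted p = 1). The probe was well above background on 2 of 5 arrays in each of these groups, so that most of these values are signals near background. Next came Stat2, with -0.60, -0.89, -0.43, -1.18 and -0.93 at D0, -0.88, -0.90, -1.02, -1.23 and -0.89 at D3, and a change of -0.18 ± 0.13. Xaf1 was at -1.53, -0.83, -1.26, -1.24 and -2.25 at D0 and at -1.96, -1.97, -1.20, -1.57 and -1.87 at D3, a change of -0.29 ± 0.24. The D0 and D3 mice overlapped for both genes. The median over members was 0.114 at D1 without mouse 10, 0.0864 at D2 without vehicle mouse 3, and at D3 -0.30 without vehicle mouse 5 and 0.0038 without vehicle mouse 3.

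Markers of other cell types also differed between exposed and vehicle forestomach, and none was called. Those of T cells were lower in 5 of 5 tested genes at each dose, with a median of -0.279 at D3, and their mean lay between -0.62 and 0.61 in vehicle mice and between -0.58 and 0.26 at D3. Those of fat cells were lower in 7 of 8 genes at D3 (median -0.785) and those of liver in 6 of 6 (-0.547). The 10 mice higher in glandular stomach markers, described below, were 2 vehicle, 4 D1, 3 D2 and 1 D3 mice. With dose group means removed, the member mean had r = 0.63 with the mean of these markers. The part of these cells and of glandular stomach in the forestomach values was not tested.

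**Figure D2:**
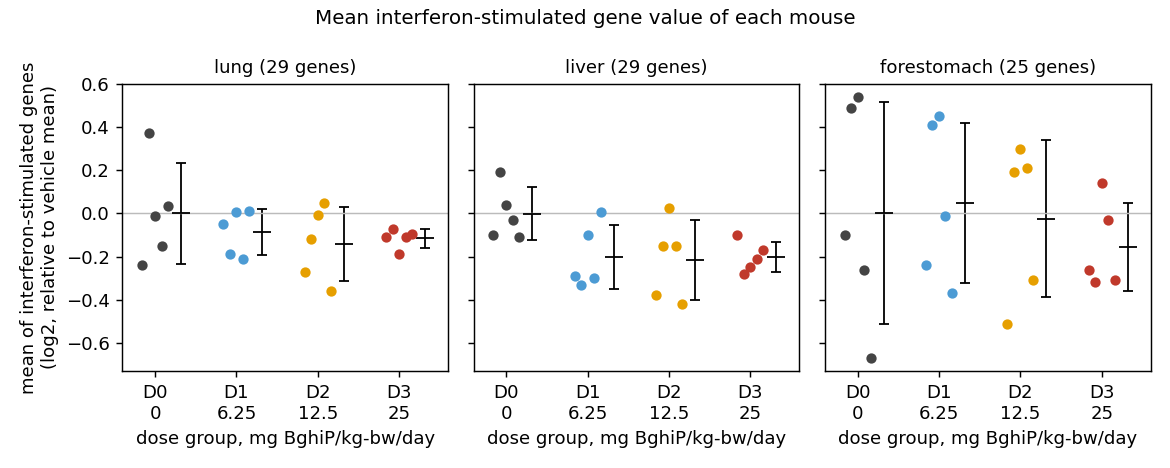
Mean log2 ratio over the tested members in each mouse, relative to the mean of the 5 vehicle mice of that tissue (vertical axis), by dose in mg/kg-bw/day for lung (29 members), liver (29) and forestomach (25). Points are mice, and bars give the mean and SD of 5 mice: at D3 lung is at -0.12 ± 0.046, liver at -0.20 ± 0.068 and forestomach at -0.16 ± 0.20.

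The SD of the member mean among vehicle mice was 0.24 in lung, 0.12 in liver and 0.51 in forestomach, against 0.046, 0.068 and 0.20 at D3, and this difference in spread was not tested. In liver the D3 mice lay between -0.28 and -0.10 relative to the vehicle mean, and the vehicle mice between -0.11 and 0.19. Slides held arrays of all doses, so the change was also read within slides. The median over liver members at D3 was -0.064, -0.19 and -0.24 on the 3 liver slides. In lung it was 0.15, -0.39, -0.17, 0.075 and -0.13 on the 5 slides, each with 1 mouse per dose, and in forestomach -0.17, -0.55, -0.29, 0.13 and 0.45, so that the sign differed between slides in both. Dose and array column cannot be told apart, since each dose occupied the same column on every slide.

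The other genes of the pathway were examined as lists. Of 48 further ISGs, 44 had a probe and 42 were tested in lung, 42 in liver and 39 in forestomach, and 0 were called at any dose. Their median change at D3 was 0.048 in lung, 0.005 in liver and -0.069 in forestomach, and 20 of 42 were lower in liver. Among interferon receptors and proximal kinases, nucleic acid sensors and adaptors, and negative regulators, which include Usp18 and Isg15, 0 genes were called at D3 in any tissue. Of 12 genes for interferons and the related ligand Il15, 10 had a probe, 7 were tested in lung, 4 in liver and 2 in forestomach, and 0 were called against vehicle at any dose.

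Many members were called between tissues, where none was called between doses. Counts against forestomach are over the 25 members that passed the filter on dim probes there, since Cmpk2, Dhx58, Ifit1 and Ifi44 passed it only through the tissue in which they are brighter. Among vehicle mice, 19 of 25 members were called between lung and forestomach, against 37.2% of the 24109 probes tested in both tissues. Of these, 18 were higher in lung (20.3% of probes) and 1, Oas3, had a higher ratio in forestomach (16.9%). Oas3 was, however, well above background on 2 of 5 vehicle forestomach arrays and on 4 of 5 vehicle lung arrays. The lung minus forestomach difference of Oas3 was -0.69 ± 0.19 (SE; limma adjusted p = 0.00844), and its call was lost without vehicle mouse 5 (-0.54) and with processed signals (-0.24). Between liver and forestomach 17 of 25 members were called against 45% of 22261 probes, 16 higher in liver (21.7%) and 1, Gbp2, higher in forestomach (23.2%). Between lung and liver 15 of 29 were called against 47.9% of 24448 probes, with 8 higher in lung (25.5%) and 7 higher in liver (22.3%). Over the 33273 probes bright enough in at least 1 of the tissues, 32.3% were called between lung and forestomach, 38.3% between liver and forestomach and 43.6% between lung and liver.

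Over the same members the median was 1.53 for lung minus forestomach and 1.20 for liver minus forestomach, against -0.0092 and 0.011 over the probes tested in both tissues, and 0.13 for lung minus liver against -0.018. With processed signals, which are background subtracted, the medians against forestomach were 1.86 for lung and 1.77 for liver. Of the further ISGs tested in both tissues, 29 of 39 were called higher and 0 lower in lung than in forestomach, and 24 higher and 4 lower in liver. The labeled tissues were borne out by their markers, with 6 of 6 lung and 6 of 6 liver markers called higher in their own tissue and 5 of 6 for squamous epithelium.

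Bst2, the tetherin that holds budding virions at the cell surface, separated the tissues most between liver and forestomach. Vehicle mice were at 1.65, 1.80, 1.72, 1.39 and 1.29 in liver, at 0.31, 0.78, -0.07, -0.11 and 0.19 in lung, and at -2.20, -1.97, -2.09, -2.17 and -2.84 in forestomach. The 3 tissues did not overlap, and the liver minus forestomach difference was 3.82 ± 0.19 (SE; limma adjusted p = 8.9e-11).

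Gbp2, a GTPase that attacks pathogen vacuoles and responds to type II interferon, was lowest in liver. It was at 2.80 ± 0.32 (SD, n = 5) in lung, 1.22 ± 0.39 in forestomach and -0.78 ± 0.29 in liver, and lung exceeded liver by 3.58 ± 0.20 (SE; limma adjusted p = 3.4e-10). Irf1 was also highest in lung, at 1.26 ± 0.37 (SD), with -0.37 ± 0.18 in liver and -1.46 ± 0.50 in forestomach. Gbp3 and Oasl2 were each higher in lung than in liver by 1.72, and their difference between liver and forestomach was -0.18 ± 0.18 (SE) and -0.047 ± 0.24.

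Irf7 and Stat2, factors that amplify and carry the interferon signal, were called higher in liver than in lung. Irf7 had a lung minus liver difference of -1.64, a liver minus forestomach difference of 1.73 and a lung minus forestomach difference of 0.088 ± 0.36 (SE), but it was well above background on 1 of 5 vehicle forestomach arrays, so that its forestomach level lies mostly in the background. Stat2 lay at 1.16 in liver, 0.027 in lung and -0.81 in forestomach, and Irf9 was higher in liver than in forestomach by 1.68, while its lung minus liver difference of -0.49 was below the 1.5-fold limit. The cytosolic sensors were also higher in liver than in lung, with lung minus liver differences of -1.17 ± 0.15 (SE) for Ifih1, -1.26 ± 0.23 for Dhx58 and -0.77 ± 0.26 for Zbp1, whose call was lost without vehicle mouse 1 (-0.73) or mouse 4 (-0.66), and Oasl1 was at -2.25 ± 0.72. Of the effectors, Ifit3 (2.63 ± 0.19, SE), Rsad2 (2.63 ± 0.35), Rtp4 (2.60 ± 0.28) and Parp14 (2.55 ± 0.19) had some of the largest lung minus forestomach differences.

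Some members were not well above background in any vehicle forestomach array, where only a bound is given. On each array the dim level was taken as the higher of the probe's own signal and the lowest signal of any probe well above background, and here the resulting folds equal those of the measured group means. Ifit1 was at least 1.84-fold higher in lung and at least 1.68-fold higher in liver, Dhx58 at least 1.32-fold in lung (4 of 5 lung arrays were well above background) and at least 3.02-fold in liver, and Ifi44 at least 1.43-fold higher in lung. For 8 members with more than 1 probe the choice of probe can matter. The less bright probes of Xaf1 and Ifih1 showed none of the tissue differences as called (0.17 and 0.45 for lung minus forestomach). That of Zbp1 showed no call. That of Isg15 was called for liver minus forestomach but not for lung minus forestomach (0.62), and that of Cmpk2 the reverse. For lung minus liver the less bright probes of Ifih1 (0.11) and Isg15 (-0.34) had the opposite sign to the brightest (-1.17 and 0.44).

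**Figure D3:**
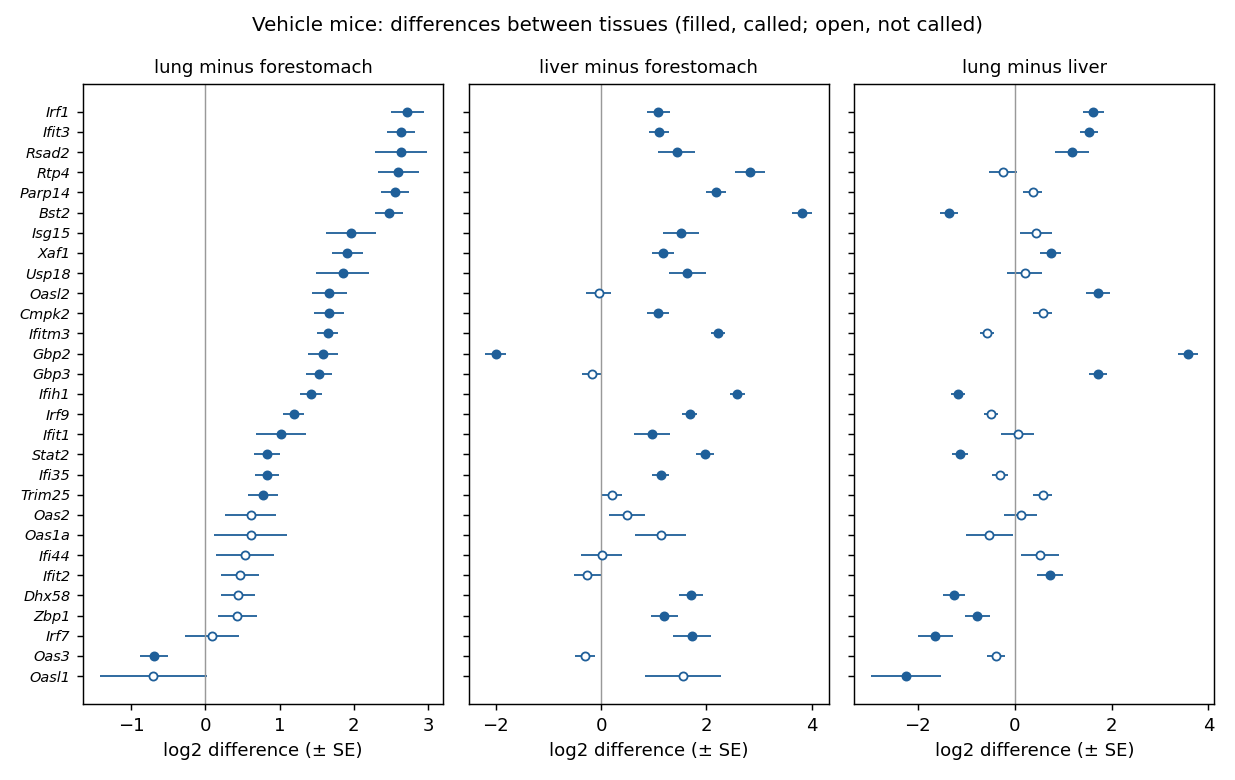
Differences between tissues in vehicle mice for the 29 members (rows), as log2 differences with their SE (horizontal axes), in the order of the lung minus forestomach difference. Filled points were called and open points were not, with 21 filled for lung minus forestomach, 20 for liver minus forestomach and 15 for lung minus liver, Ifit1, Cmpk2 and Dhx58 included although too dim in forestomach to be counted in the text, and most filled points of the first 2 panels lie to the right of 0.

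Within a tissue the members varied together from mouse to mouse once the mean of each dose group was taken away. The median Pearson r over pairs of members was 0.34 in lung, 0.23 in liver and 0.43 in forestomach, while over pairs of probes drawn from the whole array it was 0.013, 0.011 and 0.011. A pair of members had r above 0.5 in 32.3%, 18.2% and 40% of cases, against 14%, 6.61% and 12.9% of probe pairs. These correlations rest on the same 20 mice and are given with no test. In lung, the median r was 0.21 without vehicle mouse 2. In forestomach it was 0.21 with processed signals, and the member mean there ran against the percentage of probes well above background on the array (r = -0.83). The median r in forestomach was 0.37 with glandular stomach markers, described below, removed as well as dose.

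Members also spread more between mice of a dose group than the typical probe. The median SD within dose was 0.27 in lung, 0.26 in liver and 0.46 in forestomach for members, against 0.20, 0.19 and 0.29 for all probes. Those that tracked the other members best were Ifit1 (r = 0.91), Oasl2 (0.89) and Rtp4 (0.85) in lung, Rtp4 (0.82) and Oas1a (0.81) in liver, and Rtp4 (0.95), Isg15 and Zbp1 (both 0.91) in forestomach. At the other end in lung were Rsad2 (0.0083) and Ifi35 (-0.075). Members with a response element in the promoter window had a median r with the other members of 0.53 in lung, 0.53 in liver and 0.51 in forestomach, and those without one 0.53, 0.43 and 0.67.

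Genes that were neither members nor in any of the gene lists were ranked by how closely they followed the member mean. The 5 closest of these in lung were Ifit3b and Zik1 (both r = 0.75), H2-Q8 and Gvin1 (both 0.73) and Slc5a3 (0.71). Ifit3b is a close relative of Ifit3 whose probe may share signal with it. H2-Q8 is a class I histocompatibility gene and Gvin1 an interferon-induced GTPase. The 5 closest outside members and lists in liver were Ifit3b (0.79), Gabrr2 (0.77), Rnf168 (0.76), Recql (0.76) and Fcgr1, an Fc receptor of macrophages (0.75). In forestomach they were Arhgdib and Vcam1 (both 0.94), and Vav1, Pik3r5 and Tnfsfm13 (each 0.93). Vcam1 is an adhesion molecule of activated vessels and Vav1 a signaling protein of leukocytes. Of the further ISGs, 7 of 42 in lung and 13 of 42 in liver had r above 0.5, against 1.35% and 2.7% of all genes, and in forestomach 19 of 39 against 19.3%. With slide removed as well as dose the counts were 18 of 42 in lung (4.62% of all genes), 16 of 42 in liver (6.37%) and 18 of 39 in forestomach (10.3%). Adar, the RNA editing enzyme, was at 0.86 in lung, Lgals3bp at 0.82 in liver and Uba7, the enzyme that activates ISG15, at 0.92 in forestomach. T cell markers had a median r of 0.73 with the member mean in forestomach (5 of 10 tested), 0.42 in liver (7) and 0.10 in lung (10), and 0.46, 0.58 and 0.24 with slide removed. In forestomach the median r was 0.64 for the nucleic acid sensors and adaptors (8 of 11 above 0.5) and 0.60 for the 2 tested NK cell markers, and 0.28 and 0.52 with slide removed. The part of these cells in the correlations was not tested.

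A mouse whose ISGs were high in lung also tended to have them high in liver. The mean over members, with dose group means removed, correlated between the 2 tissues with a Pearson r of 0.75 and a Spearman rho of 0.70 over 20 mice. Leaving out any 1 mouse gave 0.71 to 0.79, leaving out the 2 mice farthest from the median in lung (mice 2 and 1) gave 0.73, and removing slide as well as dose gave 0.70. Lung and liver arrays were on separate slides. Of the members taken singly, 20 of 29 had r above 0, with a median of 0.27 against -0.007 over 24448 probes.

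Bst2 was the only member whose correlation between lung and liver was called, where 0.814% of probes were. Across mice 1 to 20 it ran from -0.85 (mouse 9) to 0.78 (mice 2 and 16) in lung and from 0.85 (mouse 19) to 1.92 (mouse 10) in liver. Mice 6, 9, 15 and 19, the 4 lowest in lung, were at 0.90, 1.11, 1.04 and 0.85 in liver, the 4 lowest there too. Pearson r was 0.88 (permutation p = 8e-05, adjusted p over all probes = 0.00159) and rho was 0.88 (permutation p = 2e-05) over 20 mice. It was 0.84 without mice 9 and 19, and 0.89 with slide removed (adjusted p = 0.0424).

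Gbp3 (r = 0.66), Oas2 (0.64) and Rtp4 (0.54) followed Bst2, and Gbp3 had an adjusted p of 0.165 over all probes. Ifih1 ran in the opposite direction (r = -0.64, adjusted p over all probes = 0.208), and with slide removed its r was -0.15. In all, 29 members were examined between lung and liver and 25 in each of the other pairs of tissues.

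**Figure D4:**
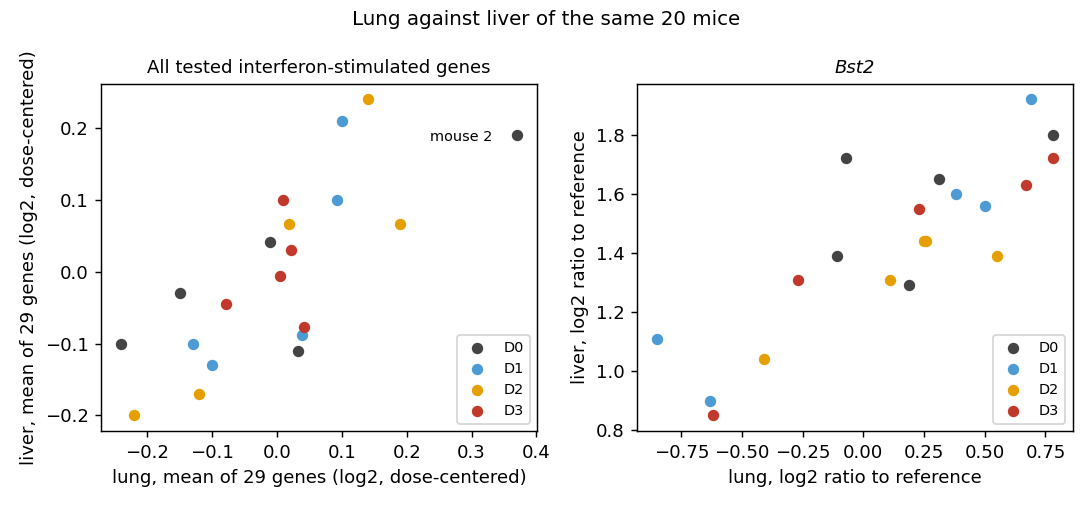
Lung (horizontal axes) against liver (vertical axes) in the 20 mice, each point 1 mouse colored by dose, for the mean over 29 members with dose group means taken away (left, r = 0.75) and for the log2 ratio of Bst2 to reference as measured (right, r = 0.88 once dose group means are taken away). Points run from low in both tissues to high in both, and vehicle mouse 2 lies farthest to the right in the left panel.

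Between lung and forestomach, which shared slides, the member mean had r = 0.39 and rho = 0.24, and without vehicle mouse 2 r was 0.21. Irf7 (0.83), Oas3 (0.77) and Ifit2 (-0.64) were called, where 21.7% of all probes were (these 3 genes were well above background on 5, 7 and 6 of the 20 forestomach arrays), and 0 members were called with slide removed (0.265% of probes). Between liver and forestomach r was 0.51 and rho 0.55, 0 members were called (0.207% of probes), and r was 0.15 with slide removed.

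In forestomach, Oasl1 and Oas1a lay apart in samples with high and low levels of glandular stomach markers, and the other 23 tested members overlapped. The 8 markers, Gkn1, Gkn2, Tff1, Tff2, Muc5ac, Atp4a, Atp4b and Pgc, were read in forestomach because the values of Oasl1 and Oas1a fell into 2 sets, and this list was drawn up after those values had been seen. The mice were ranked by the mean of the 8 markers and cut into a higher set of 10 and a lower set of 10. The mean was between 5.81 and 7.54 in the higher set and between 0.25 and 4.42 in the lower. Mice 15, 20 and 16 of the lower set lay in between, at 2.55, 4.21 and 4.42. The higher set held 2 vehicle, 4 D1, 3 D2 and 1 D3 mice.

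Oasl1 lay between -0.78 and 1.25 in the mice of the higher set (median 0.39) and between -3.70 and -2.23 in the lower set (median -3.23). Oas1a lay between -2.23 and -0.54 (median -1.38) and between -4.07 and -2.57 (median -3.47). These were the only 2 of 25 members without overlap between the sets, but the markers had been sought because of these 2 genes. Their separation is therefore not independent of the choice of markers. Of all probes, 2.26% were without overlap. The sets overlapped but had higher medians in the higher set for Isg15 (-1.27 and -2.51), Rtp4 (-1.81 and -2.90), Irf1 (-1.17 and -1.76) and Usp18 (-2.05 and -2.91). The mean over all 25 members, relative to vehicle, lay between -0.37 and 0.54 in the higher set and between -0.67 and 0.14 in the lower. With dose group means removed, it had r = 0.63 and rho = 0.66 with the marker mean. Singly, 7 of 25 members, Oasl1 and Oas1a among them, had r above 0.5, against 11.7% of probes. The median r was 0.35 over members and -0.053 over all probes. Lower medians in the higher set were found for Ifitm3, the membrane protein that blocks virus entry (-1.25 and -0.76), and for Gbp2 (0.79 and 1.29). The medians were close to each other for Ifit2 (-0.96 and -0.95), Ifit3 (-0.22 and -0.20), Oas3 (-0.65 and -0.66) and Stat2 (-0.90 and -0.88). The sets were formed from markers of the samples themselves and no test was made. Without the 2 vehicle mice of the higher set, the median over the 25 members was 1.49 for lung minus forestomach and 1.67 for liver minus forestomach. Over the probes tested in both tissues the medians of these fits were -0.011 and 0.039. The percentage of probes well above background ran from 21.4 to 53.4 over forestomach arrays. The correlation of this share with the member mean was -0.25 in lung and -0.15 in liver, and its part in the forestomach values was not tested.

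**Figure D5:**
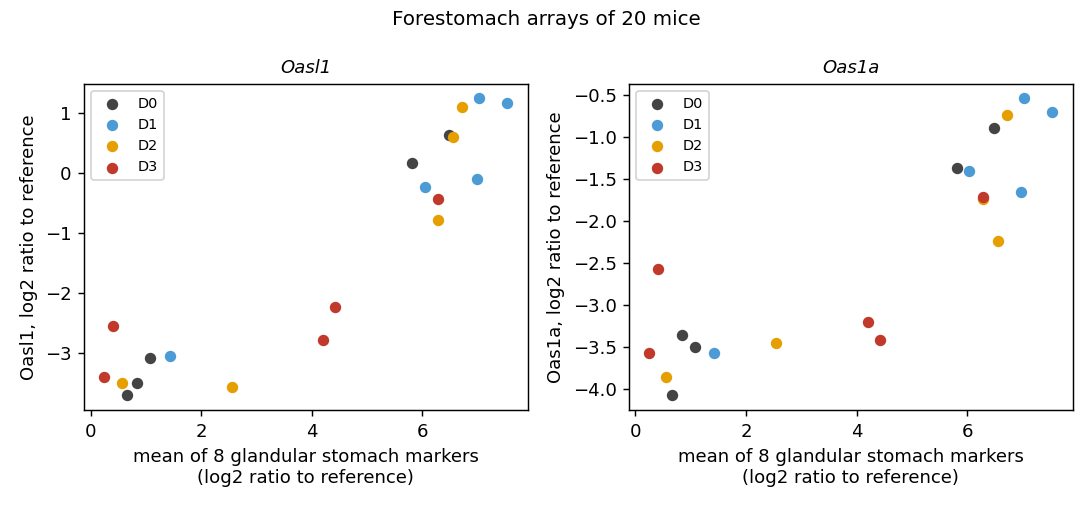
Forestomach of 20 mice: log2 ratio of Oasl1 and Oas1a (vertical axes) against the mean log2 ratio of 8 glandular stomach markers (horizontal axis), each point 1 mouse colored by dose. The 10 mice with a marker mean of 5.81 or more lie above the other 10 for both genes.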

How the data were processed

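RNA of lung, liver and forestomach of 20 mice was measured on 60 dual-color arrays. The deposited scanner files (Feature Extraction 10.7.3.1, array design on mm9) hold median signal intensity, background intensity, processed signals and flags. The authors' deposited matrix holds log2 ratios after LOWESS without background subtraction, which correlated with those computed here at r from 0.992 to 0.999. Control spots were left out, spots flagged as outliers were set to missing (0.46% of values), 0 values were saturated, and log2 ratios of median intensity were loess normalized (limma 3.58.1, R 4.3.3, data.table, version 1.17.8). A probe was tested in a tissue if it was well above background on at least 5 arrays. Names came from RefSeq accessions in a table for GRCm38.p6 (47.4% of probes), whose coordinates are used for promoters alone.

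Each tissue was fitted with lmFit and eBayes on 4 dose groups, in place of the MAANOVA F tests of the study's methods, and tissues were compared in vehicle mice. The threshold for a call was a Benjamini-Hochberg adjusted p of no more than 0.05 together with a change of 1.5-fold or more. Values of each mouse are given for the 3 members with the lowest unadjusted p at D3 in each tissue, and the 5 genes outside the lists that correlated most with the member mean are named. Other members given in full were chosen after their values were seen. The members and gene lists were chosen with earlier results of these data known. Alternatives were normexp (on median signals, as the files hold no mean signals), processed signals, the deposited ratios, quantile normalization, other filters, averaged probes, and slide or mouse as a block. Mouse numbers name the same animal in each tissue, per the labels. In vehicle mice 1 to 5, deviations of same-numbered arrays correlated at 0.13 to 0.46 between lung and forestomach. The range was -0.16 to 0.16 between lung and liver and -0.15 to 0.19 between liver and forestomach. Lung and forestomach arrays of a mouse shared a slide, so their range does not show by itself that the animal is the same. The procedure was tested on simulated data. With 5 mice per group, the number of arrays limits the precision.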

Additional observations from a re-analysis of the deposited data

Results flagged for a closer look

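In 344 groups of 5 mice, made up of each tested member and the member mean by tissue and dose, 16 held a value far from the others, where chance gives about 1 in 20 (17.2 of 344). In liver, 3 of them were in vehicle mouse 2, which was highest for Ifit2 (-0.59, with the nearest vehicle mouse at -1.26) and Oas2 (-1.22 against -1.77) and lowest for Ifih1 (2.12 against 2.54). Mouse 15 was highest in D2 liver for Ifi44 (0.09 against -1.94) and Oas3 (0.10 against -0.70). In D1 liver, Usp18 was at -0.45 in mouse 10, while the nearest of the other D1 mice was at -1.37, and with that mouse the D1 range overlapped the vehicle range of -1.10 to -0.41. In D3 liver, mouse 16 was highest for Oas1a (-1.45 against -1.96) and Dhx58 (1.43 against 1.11), and mouse 18 lowest for Oas3 (-1.06 against -0.67).

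In D3 lung, mouse 20 was highest for Stat2 (0.16 against -0.16) and lowest for Oas2 (-2.34 against -1.84), mouse 18 lowest for Xaf1 (0.07 against 0.39) and mouse 19 highest for Ifi35 (1.20 against 0.84). In D2 lung, mouse 14 was highest for Ifi35 (1.23 against 0.73). In forestomach, vehicle mouse 5 was lowest for Bst2 (-2.84 against -2.20), and D2 mouse 13 highest for Ifit2 (-0.20 against -0.99), whose probe was well above background on 6 of the 20 forestomach arrays.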

How the results depend on the processing

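The count of members called against vehicle was 0 for every dose and tissue under each alternative run, and so was the count for a change at D3 that differed between tissues. With slide as a fixed block, 21 probes in lung and 24 in liver were called at D3. Counts and medians between vehicle tissues in this section are over the 29 members in the fit. They include Cmpk2, Dhx58, Ifit1 and Ifi44, which passed the filter only through a brighter tissue. Of the 29, 21 were called for lung against forestomach (median 1.42, 32.3% of 33273 probes called). For liver against forestomach 20 were called (1.17, 38.3%). Over the 25 tested in both tissues, a limit chosen after seeing the data, these were 19 (1.53) and 17 (1.20). Counts under the alternatives are given without the share of all probes called, so that they show only how settings differ. The calls between vehicle tissues moved with the filter, with the signal used and with the vehicle mice left out. With probes well above background on all arrays, 12 members were tested. Of these, 11 were called for lung against forestomach and 10 for liver against forestomach, where the median was 1.61. This filter keeps the brighter members, and its part in the median was not tested. With processed signals, which are background subtracted, the medians over members were 1.97 (lung minus forestomach) and 2 (liver minus forestomach), and the forestomach median r between members was 0.21. With the mean over all probes of a gene, the lung minus forestomach median was 1.04.

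With the mouse number as a replicate block, which pairs the tissues of an animal, the calls numbered 15 for lung against liver, 22 for lung against forestomach and 22 for liver against forestomach, and it changed no count by over 1.5 times. The liver and forestomach correlation of the member mean was 0.15 with slide removed, 0.13 with array brightness removed and 0.18 with glandular stomach markers removed, and that of lung and forestomach was 0.13 with those markers removed, settings chosen after seeing the data except for slide. The cause of these shifts was not tested.

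Leaving out 1 vehicle mouse gave 14 to 18 calls for lung against liver, 19 to 21 for lung against forestomach and 19 to 22 for liver against forestomach. Over the 25 members tested in both tissues, it gave 18 to 19 for lung and 17 to 19 for liver, each against forestomach. Leaving out 1 mouse gave medians over members of -0.15 to 0.0051 (D1), -0.2 to -0.051 (D2) and -0.17 to -0.029 (D3) in lung, -0.3 to -0.16, -0.25 to -0.15 and -0.2 to -0.14 in liver, and -0.24 to 0.11, -0.2 to 0.086 and -0.3 to 0.0038 in forestomach. The values above 0 were without vehicle mouse 2 (lung D1), mouse 10 (forestomach D1) and vehicle mouse 3 (forestomach D2 and D3). No called value of a single gene reversed. Of the calls of single members between vehicle tissues, 11 were lost on leaving out 1 mouse, in Ifit1 (against forestomach, without mouse 4 or 5, and in lung also without mouse 2), Zbp1 and Ifit2 (lung against liver, without mouse 1 or 4), Rsad2 (lung against liver, without mouse 4) and Oas3. Another 6 were lost with processed signals (Rsad2, Xaf1 and Oas3) or with the mean over all probes of a gene (Ifih1, Zbp1 and Xaf1). Depth on an array is signal over background, which limits the dim members of forestomach to bounds.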
